A study of Homo sapiens and Mus musculus with 8 samples.

Results

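Small nucleolar RNA and microRNA host genes are long RNAs, mostly without a protein product, whose introns or exons carry smaller functional RNAs. They were followed in 2 small cell lung cancer lines treated with decitabine, a deoxycytidine analog that is built into DNA and depletes the maintenance DNA methyltransferase. The members were all rows whose symbol is SNHG with a number, begins with MIR and ends with HG, or is GAS5, DLEU2, MALAT1 or NEAT1. In the human line H146 these were 58 of 20863 listed genes, namely 23 snoRNA hosts, 33 microRNA hosts and the 2 nuclear RNAs MALAT1 and NEAT1. In the mouse line F1339 they were 23 of 16833, namely 14 snoRNA hosts, 7 microRNA hosts and the same 2 nuclear RNAs. Every member passed the filter on low values and was tested.

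H146 (NCI-H146) cells received vehicle or 0.5 µM decitabine for 96 h, and F1339 cells received vehicle or 0.5 µM decitabine for 72 h, with 2 libraries per arm and 8 in all. The labels give both lines as lung small cell lung cancer cells and name no genotype, transgene or clone for either, and no harvest time separately for vehicle. They call the libraries of an arm duplicates without saying that these came from separate cultures, so p-values measure only the spread between these libraries, which may be technical. Reads assigned to genes ranged from 62462654 to 67108249 per H146 library and from 61364041 to 67892360 per F1339 library, and 1 read was worth 0.960 to 1.08 normalized counts. Of 9 neuroendocrine markers all 9 were present in each line. Mouse Sftpc, a gene of alveolar cells, was present in F1339 at 2871 to 3577 normalized counts in all libraries.

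The introns of snoRNA hosts are trimmed after splicing into box C/D snoRNAs, which guide ribose methylation, box H/ACA snoRNAs, which guide pseudouridylation, and scaRNAs, which modify spliceosomal RNAs in Cajal bodies. The spliced host RNA is often short-lived, and several hosts are known targets of nonsense-mediated decay. MicroRNA hosts are cut by Drosha and DGCR8 to release hairpins that Dicer turns into mature microRNAs. NEAT1 is the scaffold of paraspeckles and MALAT1 is an abundant RNA of nuclear speckles. The deposited values count reads on the host gene, and levels of the mature small RNAs were not measured by them.

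The hosted RNAs below show what the H146 genes with the clearest changes carry. RefSeq (GRCh38.p14) places SNORD60 in SNHG19 (chr16:2155023-2155105, minus strand), SNORD25 (chr11:62855564-62855632, minus strand) and SNORD27 (chr11:62855012-62855083, minus strand) in SNHG1, SNORA73B in SNHG3 (chr1:28508559-28508762, plus strand) and SCARNA13 in SNHG10 (chr14:95533355-95533629, minus strand). Capitals mark the C box (TGATGA) and the D box (CTGA) of the C/D snoRNAs and the ACA near the end of the H/ACA snoRNA, as a script found these letters. In SCARNA13 no letters are marked.
SNORD60: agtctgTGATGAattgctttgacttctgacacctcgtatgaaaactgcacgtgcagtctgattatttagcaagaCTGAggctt
SNORD25: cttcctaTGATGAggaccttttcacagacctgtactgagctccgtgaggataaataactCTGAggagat
SNORD27: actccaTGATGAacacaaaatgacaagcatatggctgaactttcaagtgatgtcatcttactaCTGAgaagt
SNORA73B: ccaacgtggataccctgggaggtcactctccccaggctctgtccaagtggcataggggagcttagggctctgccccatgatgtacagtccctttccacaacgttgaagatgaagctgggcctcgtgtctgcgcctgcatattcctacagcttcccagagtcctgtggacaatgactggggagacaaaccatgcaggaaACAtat
SCARNA13: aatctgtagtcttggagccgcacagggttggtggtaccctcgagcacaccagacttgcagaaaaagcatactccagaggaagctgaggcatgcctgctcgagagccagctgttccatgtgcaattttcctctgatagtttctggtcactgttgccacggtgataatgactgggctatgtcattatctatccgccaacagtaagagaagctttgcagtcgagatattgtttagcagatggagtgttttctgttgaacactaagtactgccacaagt

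With MIR124-2HG and MIR2052HG left out, 89 mature microRNAs with 76 distinct seeds (bases 2 to 8, in capitals) were matched to 30 H146 hosts. Apart from miR-670, the match was by position within the GENCODE release 29 span of the host, on the same strand. The sequences shown belong to the hosts whose level changed in H146. Sequences of MIR124-2HG, MIR2052HG and MIR4527HG are not printed here. The link of miR-670 to MIR670HG was made by name only, as miR-670 lies outside the span that GENCODE release 29 gives that gene.
hsa-miR-9-5p: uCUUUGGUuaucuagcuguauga
hsa-miR-9-3p: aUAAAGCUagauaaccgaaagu
hsa-miR-22-3p: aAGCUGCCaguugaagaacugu
hsa-miR-22-5p: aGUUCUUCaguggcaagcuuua
hsa-miR-670-5p: gUCCCUGAguguauguggug
hsa-miR-4453: gAGCUUGGucuguagcgguu
hsa-miR-646: aAGCAGCUgccucugaggc
hsa-miR-600: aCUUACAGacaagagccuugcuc
hsa-miR-4458: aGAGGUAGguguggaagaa

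The seed GAGGUAG of the let-7 family was shared by microRNAs of 4 hosts, MIR100HG, MIR4458HG, MIR4500HG and MIRLET7BHG. The seed AGCAGCA was shared by DLEU2, host of the miR-15a and miR-16 cluster, and MIR497HG. The first set is shown because its hosts did not all have the same call, and the second because its hosts share a seed, although neither was called.
hsa-let-7a-5p: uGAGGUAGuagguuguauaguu
hsa-let-7b-5p: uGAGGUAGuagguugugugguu
hsa-miR-4500: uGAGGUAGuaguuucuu
hsa-miR-16-5p: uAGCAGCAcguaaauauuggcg
hsa-miR-195-5p: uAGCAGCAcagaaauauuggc

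In H146, decitabine libraries held less of most snoRNA hosts. Of the 23, 14 fell and 0 rose, with an adjusted p under 0.05 by limma over all 20783 genes tested, while 9 did not pass. Over all genes tested 12.3% were called lower and 15.4% higher by the same rule. The median log2 fold change of the 23 hosts was -0.67, beside -0.0073 over all genes. In 15 of the 23 both decitabine libraries lay below both vehicle libraries, in 0 above, and in 8 the arms overlapped; over all genes 30.6% were separated downward. Counts by edgeR were 0 higher and 15 lower, and by DESeq2 0 higher and 11 lower; over all genes edgeR called 13.7% and DESeq2 10.5% lower. Over all genes edgeR called 15.5% and DESeq2 12.9% higher. At an unadjusted p under 0.05 by limma, 0 of the hosts were higher and 16 lower, beside 19.9% and 17.9% of all genes. SNHG9, host of SNORA78, was the added edgeR call.

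**Figure D1:**
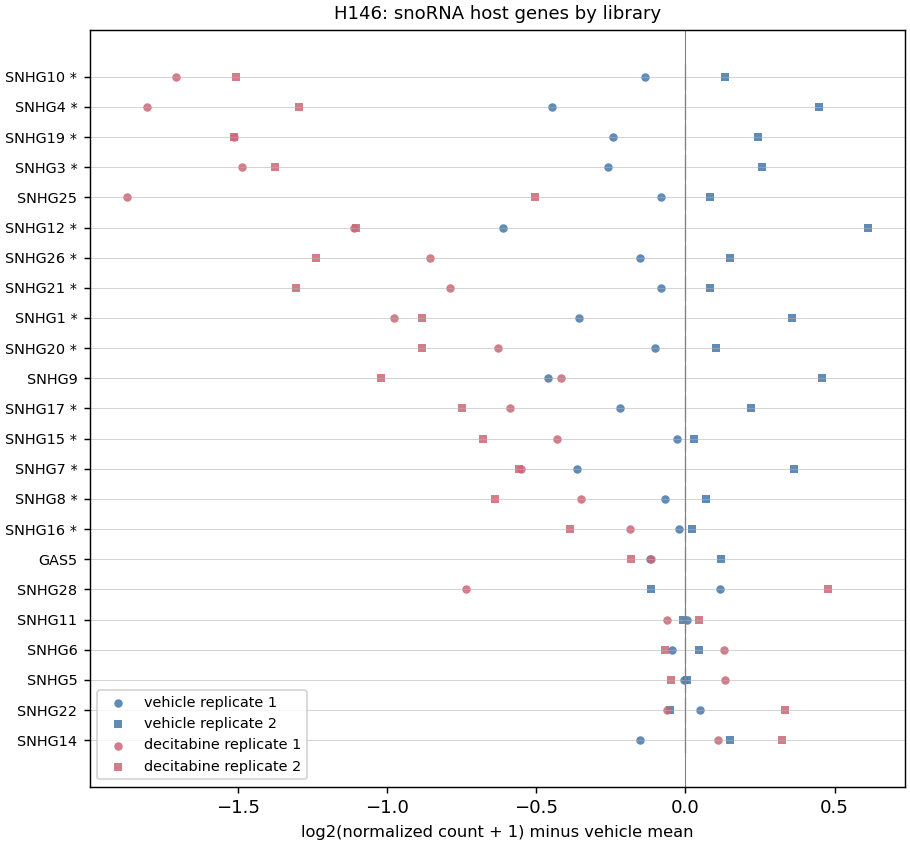
Each of the 23 snoRNA hosts in H146, with every library as log2(normalized count + 1) minus the vehicle mean of that gene (horizontal axis). Circles are replicate 1 and squares replicate 2, blue is vehicle and red decitabine, and an asterisk marks an adjusted p under 0.05. Red points lie left of both blue points in 15 genes, and the blue square lies right of the blue circle in 20.

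The hosts with the largest falls carry few small RNAs each. SNHG10, host of SCARNA13 (chr14:95532297-95534872, minus strand, GRCh38, GENCODE release 29), had 451 and 544 normalized counts in vehicle and 151 and 174 in decitabine. Both decitabine libraries lay well below vehicle, a 3.06-fold lower mean (log2 fold change -1.61, SE 0.17, adjusted p = 5.70e-08, limma). SNHG19, host of SNORD60 (chr16:2154797-2155358, minus strand), had 890 and 1245 in vehicle and 368 in each decitabine library. The arms were far apart (log2 -1.51, SE 0.15, adjusted p = 1.43e-08, limma). SNHG3, host of the H/ACA snoRNAs SNORA73A and SNORA73B (chr1:28505980-28510892, plus strand), had 863 and 1234 in vehicle and 368 and 397 in decitabine. Again no vehicle value was near a decitabine value (log2 -1.43, SE 0.15, adjusted p = 4.93e-08, limma).

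SNHG4, host of SNORA74A, had 91.3 and 170.4 normalized counts in vehicle against 35 and 50.2 in decitabine. Its arms did not overlap (log2 -1.55, SE 0.30, adjusted p = 0.000306, limma), and without decitabine replicate 1 the adjusted p was 0.0703. SNHG12, which carries SNORD99 and 3 H/ACA snoRNAs, had 309 and 722 in vehicle and 218 and 219 in decitabine. The 2 vehicle libraries differed from each other more than the lower one did from decitabine (log2 -1.11, SE 0.23, adjusted p = 0.00075 by limma and 0.122 by DESeq2). The SNHG12 log2 value was -1.72 without vehicle replicate 1 and -0.50 without vehicle replicate 2, and without decitabine replicate 1 or 2 the adjusted p was 0.102 or 0.095.

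SNHG1, which carries 8 box C/D snoRNAs (chr11:62851988-62855914, minus strand), had 1971 and 3237 in vehicle and 1284 and 1370.0 in decitabine. The arms were apart, with a wide vehicle arm (log2 -0.93, SE 0.15, adjusted p = 2.57e-05, limma), and the value was -0.57 without vehicle replicate 2. SNHG17, host of the SNORA71 snoRNAs, had 1051 and 1426 in vehicle and 814 and 727 in decitabine (log2 -0.67, SE 0.13, adjusted p = 0.000437, limma). SNHG20, host of SCARNA16, had 745 and 859 against 517 and 434 (log2 -0.76, SE 0.14, adjusted p = 0.000149, limma). Neither had an overlap between arms. Without decitabine replicate 2 the adjusted p of SNHG17 was 0.067, and without vehicle replicate 2 its log2 value was -0.45.

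The other hosts that passed were closer to vehicle. SNHG15, host of SNORA9, had 1197 and 1246 in vehicle and 905 and 762 in decitabine (log2 -0.56, SE 0.12), and SNHG7, host of SNORA17A and SNORA17B, had 631 and 1045 against 554 and 551 (log2 -0.55, SE 0.16). SNHG7 depended on the high vehicle library, and without vehicle replicate 2 its log2 value was -0.19 with an adjusted p of 0.419 (limma); without decitabine replicate 1 or 2 it was 0.193 or 0.195. SNHG15 lost its call without decitabine replicate 2, at an adjusted p of 0.0737 (limma). SNHG16, host of the SNORD1 snoRNAs, had 3515 and 3628 against 3139 and 2731 (log2 -0.29, SE 0.10, adjusted p = 0.0388, limma), and lost its call when any 1 of the 4 libraries was left out, at adjusted p between 0.0589 and 0.338. SNHG8, host of SNORA24, had 383 and 421 against 315 and 258 (log2 -0.49, adjusted p = 0.0223, limma), and leaving out vehicle replicate 2 gave 0.0672, decitabine replicate 1 0.0749 and decitabine replicate 2 0.296.

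A pair of low or overlapping hosts completes the calls. SNHG21, host of SCARNA15, had 171 and 191 against 104 and 72.5 (log2 -1.05, SE 0.23, adjusted p = 0.00101, limma; 0.0966 without decitabine replicate 2). SNHG26, host of SNORD93, had 38.1 and 47.2 against 23 and 17.4, a ratio of decitabine to vehicle of 0.473 with a 95% counting interval of 0.317 to 0.695 (counting error only; adjusted p = 0.0389, limma). Leaving out vehicle replicate 2 gave an adjusted p of 0.165, and leaving out decitabine replicate 1 or 2 gave 0.113 or 0.248. Strandedness of the counting is not given in the sources used here, so reads of genes that overlap on either strand cannot be told apart. Of exonic bases, SNHG21 shares 72.9% with a gene on the same strand and 34.1% with one on the other, and SNHG16 shares 30.6%, SNHG7 25.2% and SNHG10 20.1% with the other strand. Apart from SNHG21, shares on the same strand in the hosts that fell ran from 0.0% for SNHG10, SNHG19 and SNHG26 to 15.3% for SNHG1. These shares include annotated small RNAs inside a host. For SNHG20 (10.7%), SNHG3 and SNHG4, the genes overlapped on the same strand also include SEC14L1, RCC1 and MATR3, in that order.

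The snoRNA hosts with the highest means, SNHG6, SNHG5, GAS5 and SNHG14, were not among the genes that passed. SNHG16 and SNHG1, next in abundance, were called lower. GAS5, which carries 10 box C/D snoRNAs and 1 H/ACA snoRNA in RefSeq, had 3978 and 4694 normalized counts in vehicle and 3985 and 3812 in decitabine. Its arms overlapped, since 3985 lay just above 3978 (log2 -0.15, SE 0.10, adjusted p = 0.311, limma). SNHG6, host of SNORD87, had 6256 and 6673 against 7067 and 6157 (log2 0.03, SE 0.10), and SNHG5, host of the SNORD50 pair, had 4225 and 4255 against 4645 and 4097 (log2 0.04, SE 0.10). In both genes vehicle fell within the decitabine range. SNHG14, the long transcript of the imprinted Prader-Willi region that carries 83 box C/D snoRNAs and runs antisense to UBE3A, had 3383 and 4172 against 4055 and 4708 (log2 0.22, SE 0.11, adjusted p = 0.152, limma), and passed only without vehicle replicate 2 (0.0224). SNHG11 had 876 and 867 against 835 and 900.4, with a log2 value of -0.01 (SE 0.12).

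SNHG9 (log2 -0.72, SE 0.28, adjusted p = 0.0604), SNHG25 (log2 -1.19, SE 0.46, adjusted p = 0.0588), SNHG22 (log2 0.14, SE 0.17, adjusted p = 0.607) and SNHG28 (log2 -0.13, SE 0.51, adjusted p = 0.881) make up the rest that limma did not call. Of these, SNHG25 and SNHG28 had at most 33.9 normalized counts in any library. Per 1000 exonic bases of GENCODE release 29, vehicle levels were highest in SNHG6 (5184 normalized counts), SNHG19 (3121), SNHG5 (1511) and GAS5 (1194). SNHG19 was thus the one of these 4 that fell.

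Vehicle replicate 2 stood above vehicle replicate 1 in 20 of the 23 snoRNA hosts, with a median log2 difference of 0.24. Over all genes tested this held for 9805 of 20783, with a median of -0.016. The fall against vehicle replicate 1 alone was therefore smaller for most of these hosts. With all libraries, 7 members were called higher and 18 lower in all classes together. Fewer in total were called without vehicle replicate 2 or without either decitabine library. Over all genes tested, fewer were called as well in each of these fits. The part of this library difference in the result was not tested.

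Promoters are shown for 3 snoRNA hosts that fell and 1 microRNA host that rose, with their CG, the dinucleotide that DNA methyltransferases methylate. RefSeq windows of 300 bases, 250 before to 50 after the start, were found for 46 members. The 13 windows of snoRNA hosts that fell held a median of 27 CG, the 6 of those not called 20, while over all 35116 windows the median was 14. The motif CACGTG, which reads the same on both strands and contains 1 CG, was in 1 of the 13 (SNHG7) and in 7.26% of all windows. Methylation was not measured here. The windows are those of SNHG10 (chr14:95534823-95535122, minus strand, 27 CG), SNHG19 (chr16:2155309-2155608, minus strand, 23 CG), SNHG3 (chr1:28505693-28505992, plus strand, 13 CG) and the microRNA host MIR9-3HG (chr15:89361329-89361628, plus strand, 13 CG), with each CG in capitals.
SNHG10: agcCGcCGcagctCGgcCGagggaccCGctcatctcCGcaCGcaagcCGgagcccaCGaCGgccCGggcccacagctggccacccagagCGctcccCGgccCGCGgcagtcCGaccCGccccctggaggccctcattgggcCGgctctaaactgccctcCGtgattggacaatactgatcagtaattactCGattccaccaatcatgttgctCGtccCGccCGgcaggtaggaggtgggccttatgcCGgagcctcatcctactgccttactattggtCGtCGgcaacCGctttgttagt
SNHG19: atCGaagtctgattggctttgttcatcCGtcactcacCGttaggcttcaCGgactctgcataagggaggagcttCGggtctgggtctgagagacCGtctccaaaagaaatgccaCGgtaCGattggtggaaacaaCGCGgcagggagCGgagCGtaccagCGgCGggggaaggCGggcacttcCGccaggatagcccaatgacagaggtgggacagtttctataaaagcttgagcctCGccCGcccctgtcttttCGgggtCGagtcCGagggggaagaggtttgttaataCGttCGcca
SNHG3: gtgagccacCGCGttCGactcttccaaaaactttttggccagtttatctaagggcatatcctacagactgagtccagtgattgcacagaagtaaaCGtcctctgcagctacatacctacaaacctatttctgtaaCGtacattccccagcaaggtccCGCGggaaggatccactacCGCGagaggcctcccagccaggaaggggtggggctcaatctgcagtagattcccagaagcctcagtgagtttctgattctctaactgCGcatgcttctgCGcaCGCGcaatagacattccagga
MIR9-3HG: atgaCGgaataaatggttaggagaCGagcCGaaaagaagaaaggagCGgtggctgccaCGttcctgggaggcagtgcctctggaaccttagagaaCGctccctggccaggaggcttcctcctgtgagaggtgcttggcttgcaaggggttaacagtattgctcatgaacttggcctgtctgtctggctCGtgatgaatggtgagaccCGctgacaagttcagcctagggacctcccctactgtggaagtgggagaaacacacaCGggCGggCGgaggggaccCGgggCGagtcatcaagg

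MicroRNA hosts moved in both directions in H146. Of 33, 5 rose, 4 fell and 24 did not pass, beside 15.4% higher and 12.3% lower over all genes, and their median log2 fold change was -0.14. The share called was thus near that of all genes. In 9 the decitabine libraries lay above both vehicle libraries and in 12 below both, beside 31.5% and 30.6% of all genes. By DESeq2, 4 were higher and 2 lower, and by edgeR 5 and 4.

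**Figure D2:**
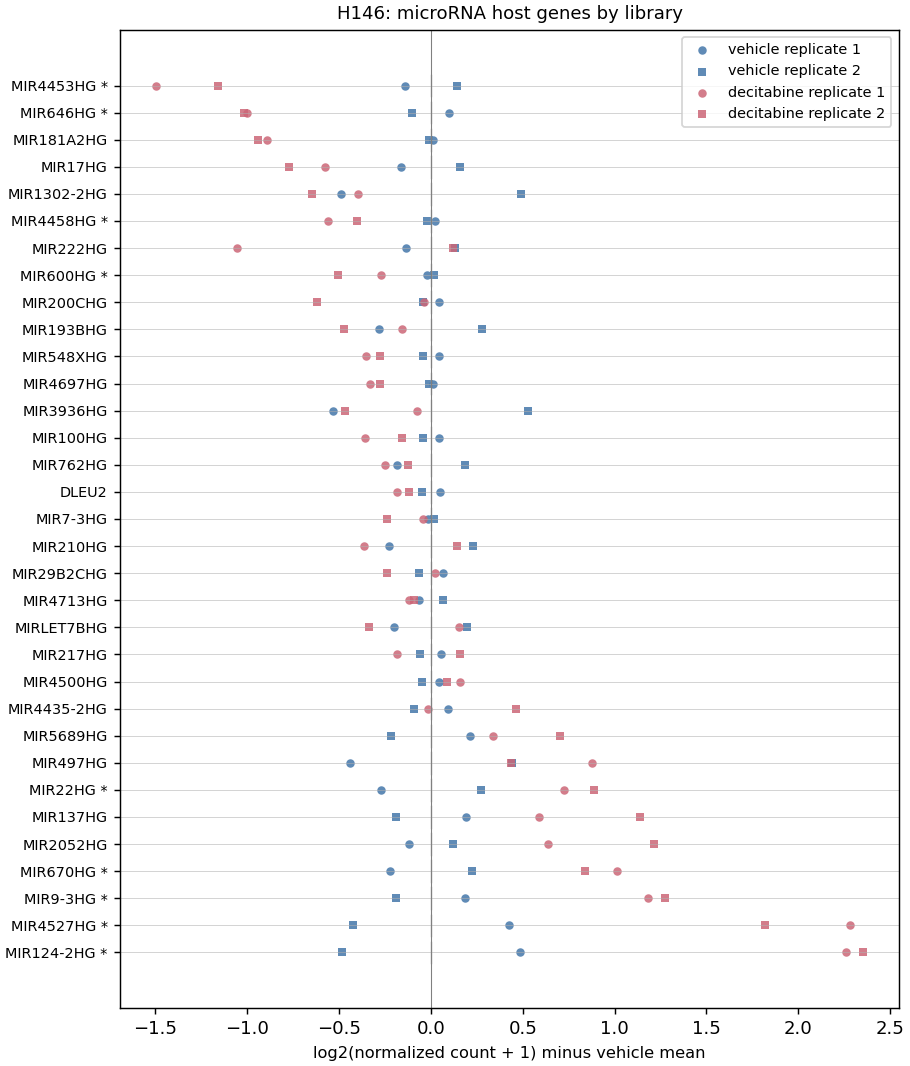
Each of the 33 microRNA hosts in H146, with every library as log2(normalized count + 1) minus the vehicle mean of that gene (horizontal axis). Symbols are as for the snoRNA hosts, with an asterisk for an adjusted p under 0.05. MIR124-2HG and MIR4527HG at the bottom stand furthest to the right of their vehicle mean in both decitabine libraries.

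MIR124-2HG and MIR9-3HG were among the hosts that rose. MIR124-2HG, host of a copy of miR-124, which is abundant in neurons, had 13 and 6.16 normalized counts in vehicle and 47 and 50.2 in decitabine. These are few reads, and the ratio of 5.07 had a 95% counting interval of 3.07 to 8.74 (log2 2.31, SE 0.44, adjusted p = 0.000262, limma). MIR9-3HG, host of a copy of miR-9, a microRNA of neural progenitors (chr15:89361579-89398487, plus strand), had 76.2 and 58.5 in vehicle and 153 and 163 in decitabine. Its arms were well apart (log2 1.23, SE 0.24, adjusted p = 0.000285, limma; 0.0524 without decitabine replicate 2). MIR137HG, host of the neural miR-137, had 27.1 and 20.5 against 36 and 53.1, which did not pass (log2 0.86, SE 0.37, adjusted p = 0.0844, limma).

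MIR22HG, host of miR-22, had 74.2 and 109 normalized counts in vehicle and 149 and 167 in decitabine (log2 0.81, SE 0.23, adjusted p = 0.0109, limma). Its arms did not overlap, but the adjusted p was 0.0717 when vehicle replicate 1 was left out and 0.127 or 0.209 when decitabine replicate 1 or 2 was, and without vehicle replicate 1 the log2 value was 0.53. MIR670HG had 29.1 and 40 against 70 and 61.8 (log2 0.93, SE 0.31, adjusted p = 0.0291 by limma and 0.128 by DESeq2). The same libraries decided its call, with adjusted p of 0.101, 0.252 and 0.158 when each was absent. MIR4527HG had 10 and 5.13 against 39 and 28, a ratio of 4.42 with a 95% counting interval of 2.48 to 8.27 (log2 2.05, SE 0.49, adjusted p = 0.00238, limma; 0.0881 without decitabine replicate 1).

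Among the hosts that fell, MIR4453HG had 165 and 201 normalized counts in vehicle and 64 and 81.2 in decitabine (log2 -1.33, SE 0.23, adjusted p = 8.34e-05, limma). MIR646HG, whose span also holds miR-4533, had 201 and 174 against 93 and 91.8 (log2 -1.01, SE 0.21, adjusted p = 0.000719, limma). Both kept their calls under all 14 alternatives tried, as did MIR124-2HG, SNHG10, SNHG19 and SNHG3. MIR600HG, annotated as sense intronic to STRBP, had 594 and 609.7 against 498 and 424 (log2 -0.39, SE 0.14, adjusted p = 0.0382 by limma and 0.0753 by DESeq2). Leaving out vehicle replicate 2 gave 0.08, and leaving out decitabine replicate 1 or 2 gave 0.0921 or 0.339.

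MIR4458HG was the only one of the 4 hosts with a let-7 seed that passed, with 385 and 374 normalized counts in vehicle and 257 and 287 in decitabine (log2 -0.48, SE 0.16, adjusted p = 0.0238 by limma and 0.0534 by DESeq2). Without decitabine replicate 1 or 2 its adjusted p was 0.239 or 0.108. MIR100HG (log2 -0.26, SE 0.29), MIR4500HG (log2 0.12, SE 0.26) and MIRLET7BHG (log2 -0.09, SE 0.22) were within their errors. The difference between these hosts was not tested. LIN28A, the RNA-binding protein that blocks let-7 processing, had 29.1 and 43.1 in vehicle and 92 and 103 in decitabine (log2 1.44, SE 0.29, adjusted p = 0.000566, limma; 0.0674 without decitabine replicate 2).

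DLEU2, host of miR-15a and miR-16 in a region often deleted in leukemia, had 754 and 704 normalized counts in H146 vehicle and 641 and 670.5 in decitabine. Both decitabine libraries lay just below vehicle (log2 -0.15, SE 0.13, adjusted p = 0.407, limma). MIR497HG, with the same seed, had 9.03 and 17.4 against 24 and 17.4 (log2 0.66, SE 0.48). MIR17HG, host of the growth-promoting miR-17 cluster, had 80.2 and 101 against 60 and 52.2, apart between arms but not called (log2 -0.67, SE 0.27, adjusted p = 0.0645, limma). Among the other abundant hosts, MIR217HG (log2 -0.01, SE 0.15) and MIR4697HG (log2 -0.30, SE 0.14) did not pass. The remaining uncalled hosts had fitted log2 values between -0.92 (MIR181A2HG) and 0.93 (MIR2052HG).

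NEAT1 and MALAT1 were higher in decitabine libraries of H146. NEAT1 (chr11:65422774-65445540, plus strand) had 660.0 and 849 normalized counts in vehicle and 1171 and 1213 in decitabine. The arms were clearly apart, at a ratio of 1.58 (log2 0.67, SE 0.13, adjusted p = 0.00026, limma). MALAT1 (chr11:65497688-65506516, plus strand) had 16852 and 20963 against 28109.8 and 21036, so that the higher vehicle and the lower decitabine library were nearly equal (log2 0.37, SE 0.13, adjusted p = 0.0351 by limma, 0.0192 by edgeR and 0.328 by DESeq2). Its log2 value was 0.21 without vehicle replicate 1 and 0.16 without decitabine replicate 1, with adjusted p of 0.275 and 0.566, and scaling to the same total gave 0.0555.

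**Figure D3:**
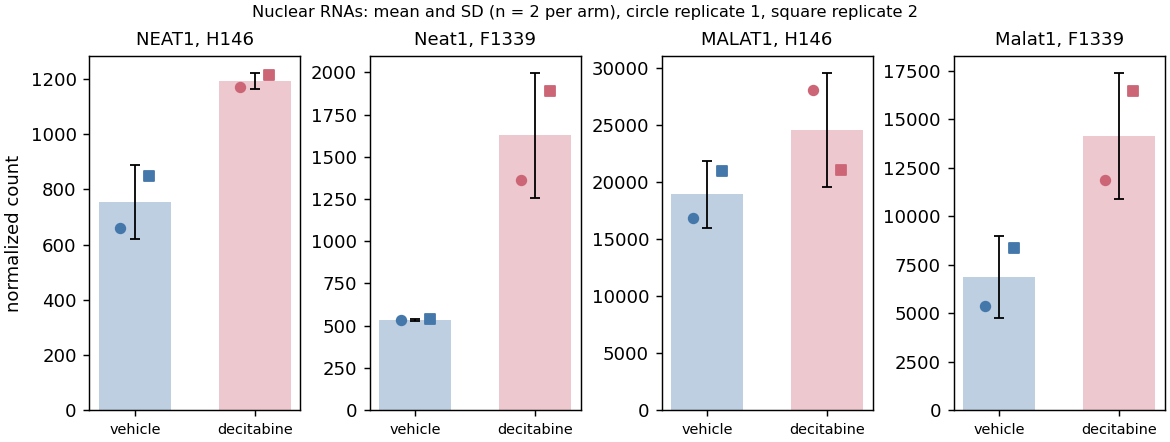
Normalized counts of NEAT1 and MALAT1 in H146 and of Neat1 and Malat1 in F1339 (vertical axes start at 0 and differ between panels). Bars are means, error bars SD with n = 2 per arm, circles replicate 1 and squares replicate 2. Decitabine libraries lie above vehicle in every panel, by the least in MALAT1 of H146, where 20963 and 21036 nearly meet.

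In F1339, with treatment as the only term, no member passed by limma or edgeR, and no gene of 16680 did (0.0% called in either direction), with 596 higher and 336 lower at an unadjusted p under 0.05. DESeq2 called 77 genes higher (0.462%) and 30 lower (0.18%), among them 1 member, Neat1. At an unadjusted p under 0.05 by limma, 3 members were higher (Neat1, Malat1 and Mir670hg) and 0 lower, beside 3.57% and 2.01% of all genes. Both decitabine libraries lay above both vehicle libraries in 12 of the 23 members and below in 0, beside 17.9% and 18.0% of all genes. The median log2 fold change was 0.43 over the members, 0.32 over the 14 snoRNA hosts and -0.0075 over all genes. Scaling to the same total moved the median of all genes to 0.0865.

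Neat1 had 531 and 539 normalized counts in F1339 vehicle and 1364 and 1888 in decitabine. The vehicle libraries nearly coincided and the ratio of means was 3.04 (log2 1.58, SE 0.22, unadjusted p = 0.000993 and adjusted p = 0.89 by limma, adjusted p = 3.41e-06 by DESeq2). Malat1 had 5373 and 8339 against 11848 and 16442, with separated arms and a wide spread in each (log2 1.06, SE 0.28, adjusted p = 0.89 by limma and 0.0853 by DESeq2). Mir670hg had 2.16 and 3.9 against 15.7 and 47, a ratio of 10.4 with a 95% counting interval of 4.47 to 28.99 (adjusted p = 0.89 by limma and 0.448 by DESeq2). Dleu2 had 479 and 556 against 685 and 978 (log2 0.66, SE 0.26, adjusted p = 0.89, limma).

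**Figure D4:**
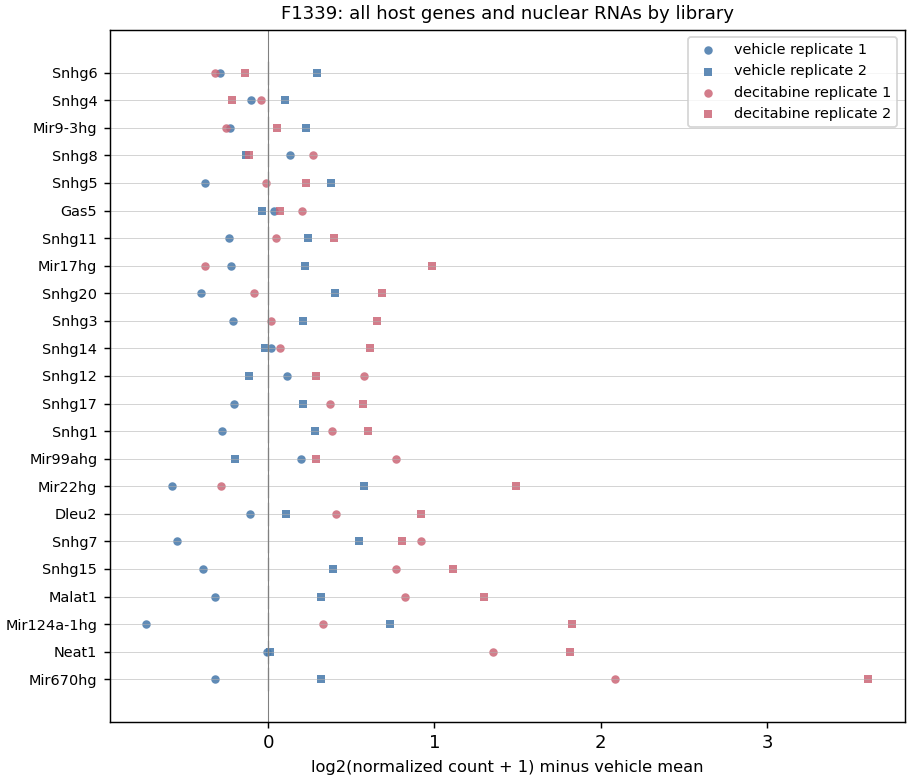
Each of the 23 members in F1339, with every library as log2(normalized count + 1) minus the vehicle mean of that gene (horizontal axis). Circles are replicate 1 and squares replicate 2, blue is vehicle and red decitabine. No gene carries an asterisk, and both red points lie right of both blue points in 12 genes.

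Among the mouse snoRNA hosts, Snhg15 had the highest fitted value, with 156 and 267 normalized counts in vehicle and 348 and 442 in decitabine (log2 0.94, SE 0.36, unadjusted p = 0.0503 by limma). Its arms did not overlap. Snhg12 had 1568 and 1336 against 2155 and 1767, Snhg17 had 1172 and 1562 against 1749.8 and 2012, and Snhg1 had 1768 and 2602 against 2801 and 3249.9. In these 3 the arms were apart as well, at log2 values of 0.43, 0.47 and 0.49, and all had an adjusted p of 0.89 (limma). Snhg7 had 5.4 and 12.7 against 16.7 and 15.4, a ratio of 1.77 with a 95% counting interval of 0.95 to 3.28. Gas5, the most abundant mouse host, had 4885 and 4640.0 against 5478 and 5012 (log2 0.14, SE 0.12).

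Snhg8 (log2 0.08, SE 0.19), Snhg5 (log2 0.11, SE 0.28), Snhg4 (log2 -0.13, SE 0.17), Snhg6 (log2 -0.23, SE 0.26), Snhg11 (log2 0.22, SE 0.27), Snhg20 (log2 0.30, SE 0.39) and Snhg3 (log2 0.33, SE 0.30) had overlapping arms, and Snhg14 (log2 0.34, SE 0.36) had arms that were barely apart. The microRNA host Mir9-3hg had 418 and 574 against 409.9 and 509 (log2 -0.10, SE 0.27), and Mir22hg had 8.64 and 20.5 against 10.8 and 39.4 (log2 0.60, SE 0.81). In both, 1 arm lay partly within the other. Mir17hg (log2 0.30, SE 0.57), Mir99ahg (log2 0.53, SE 0.39) and Mir124a-1hg (log2 1.08, SE 0.82) were also not called. In F1339, replicate 2 stood above replicate 1 in 18 of the 23 members in vehicle and in 17 in decitabine. Over all 16680 genes tested, this held for 8365 in vehicle and 8442 in decitabine.

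By symbol, 21 members were listed in both lines, 14 of them snoRNA hosts and 5 microRNA hosts. In 3 of these, MIR670HG, MALAT1 and NEAT1, decitabine libraries lay above both vehicle libraries in each line. In 6, namely DLEU2, SNHG1, SNHG7, SNHG12, SNHG15 and SNHG17, they lay below in H146 and above in F1339. Of the 11845 genes tested in both lines under a symbol that occurs once in each table, 15.3% were apart in the same direction, near the share of the members, and 4.1% were lower in H146 and higher in F1339. The lines differ in species and in hours of treatment and their tables were normalized separately, so the difference between them was not tested, and species and time cannot be told apart. SNHG3, SNHG4, SNHG8 and SNHG20, lower in H146, had overlapping arms in F1339.

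**Figure D5:**
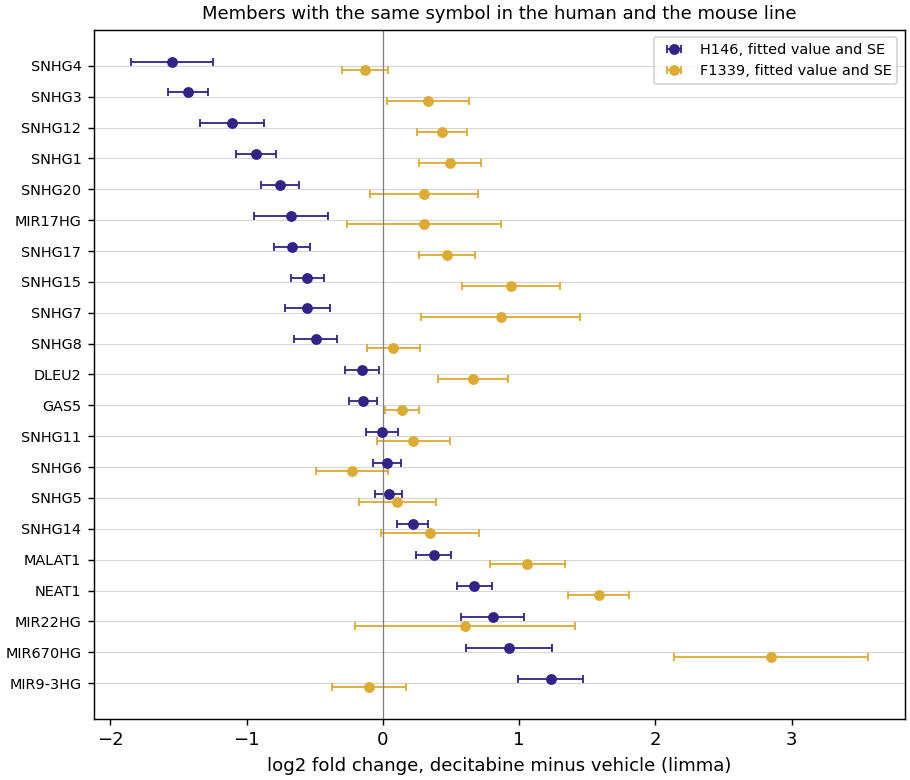
Fitted log2 fold changes, decitabine minus vehicle, with SE (horizontal axis) for the 21 symbols listed in both lines, H146 in dark blue and F1339 in yellow, ordered by H146. Most snoRNA hosts at the top lie left of 0 in H146 and right of 0 in F1339, and NEAT1, MALAT1 and MIR670HG lie right of 0 in both.

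Genes that start within 1000 bases of a host on the other strand were read beside it in H146. SLC3A2, a subunit of amino acid transporters that starts 188 bases from SNHG1, had 9967 and 8819 normalized counts in vehicle and 9465 and 8887 in decitabine (log2 -0.03, SE 0.10), where SNHG1 fell by 0.93 on the log2 scale. TRAF7, a ubiquitin ligase 340 bases from SNHG19, had 18396 and 16696 against 13725 and 13712 (log2 -0.35, SE 0.10, adjusted p = 0.0131, limma), and FBXW7, a substrate receptor of a ubiquitin ligase 201 bases from MIR4453HG, had 2623 and 2614 against 2150.0 and 2089 (log2 -0.31, SE 0.10, adjusted p = 0.0255, limma). Both were smaller changes than those of the hosts, and TRAF7 lost its call in the absence of vehicle replicate 1 (0.109) or of decitabine replicate 1 or 2 (0.12 and 0.114) and FBXW7 without any 1 library (0.0742 to 0.153). WDR81, 651 bases from MIR22HG, was lower in both decitabine libraries at an adjusted p of 0.0595 (log2 -0.28, SE 0.11) where MIR22HG rose, and passed without vehicle replicate 2 (0.00812). ZBTB37, 800 bases from GAS5, had a log2 value of -0.18 (SE 0.13, adjusted p = 0.317).

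Genes for snoRNP proteins were lower in H146 decitabine libraries where they changed. Of 21 snoRNP proteins and assembly factors, 7 fell and 0 rose in H146, with a median log2 value of -0.17, beside 12.3% lower, 15.4% higher and a median of -0.0073 over all genes. NOP58, a core protein of C/D snoRNPs, had 6609.8 and 6611 normalized counts in vehicle and 4655 and 4331 in decitabine (log2 -0.56, SE 0.10, adjusted p = 0.000103, limma). NOLC1, a snoRNP chaperone of nucleoli and Cajal bodies (log2 -0.46, SE 0.10), and NOP56, the partner of NOP58 (log2 -0.43, SE 0.11), fell by less. The NOLC1 call was lost without decitabine replicate 1 (0.0628), and that of NOP56 in the absence of vehicle replicate 2 (0.132) or of decitabine replicate 1 or 2 (0.0859 and 0.107). Of 35 protein-coding snoRNA hosts, 6 fell and 0 rose (median -0.0973), not far from the 12.3% of all genes that fell. Among the 6 were EIF4A1, a translation initiation helicase (log2 -0.53, SE 0.11), and NCL, the nucleolar protein nucleolin (log2 -0.48, SE 0.12; 0.0757 without decitabine replicate 1 and 0.122 without decitabine replicate 2).

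Of 28 protein-coding microRNA hosts listed, 3 rose and 5 fell (median -0.0005), shares near the 15.4% higher and 12.3% lower over all genes. COPZ2, a coat protein gene that hosts miR-152, had 92.3 and 59.5 against 266 and 215 (log2 1.68, SE 0.23, adjusted p = 4.13e-06, limma), and the imprinted gene MEST, host of miR-335, had 12912 and 12054 against 20478 and 20388 (log2 0.71, SE 0.10). SREBF1, a regulator of lipid synthesis that hosts miR-33b, fell (log2 -0.57, SE 0.10). Of 20 microRNA biogenesis and action genes, 1 rose (LIN28A) and 5 fell (median -0.13), beside the same 15.4% and 12.3%. DGCR8, the partner of Drosha, had 3746 and 3759.7 against 2724 and 2633 (log2 -0.49, SE 0.10, adjusted p = 0.000508, limma). TNRC6A, a silencing factor, fell as well (log2 -0.46, SE 0.11), but not when vehicle replicate 2 (0.108) or decitabine replicate 1 or 2 (0.105 and 0.0637) was left out.

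Nonsense-mediated decay is known to degrade several spliced snoRNA hosts, and of 19 of its genes 5 fell and 0 rose (median -0.14), beside 12.3% lower over all genes. The kinase SMG1 had 4973 and 5518 normalized counts in vehicle and 2870.0 and 3915 in decitabine (log2 -0.64, SE 0.12, adjusted p = 0.000174, limma; 0.0512 without decitabine replicate 1). NBAS (log2 -0.39, SE 0.11) lost its call without vehicle replicate 1 (0.0874) or decitabine replicate 1 (0.213), and SMG5 (log2 -0.36, SE 0.10) without vehicle replicate 1 or either decitabine library (0.083, 0.122 and 0.0838). Of 18 paraspeckle proteins 3 fell and 0 rose (DAZAP1, EWSR1 and HNRNPR), and of 16 nuclear speckle proteins 3 fell and 0 rose (SRSF2, PNN and ACIN1). In 15 of the 18 and 9 of the 16, both decitabine libraries lay below both vehicle libraries, beside 30.6% of all genes. They lay above in 1 protein of each list, beside 31.5% of all genes. The list medians were -0.17 and -0.16, and both shares called lower were not far from 12.3%. Of these, DAZAP1 (log2 -0.51, SE 0.10, adjusted p = 0.000416, limma) held without each library, and the other 5 lost the call without 3 or more of the 4 libraries, at adjusted p from 0.061 to 0.363. In F1339, 0 members of these lists were called by limma, with medians from -0.24 (protein-coding snoRNA hosts) to 0.02 (nonsense-mediated decay).

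Of 9 neuroendocrine markers of H146, 3 were called higher and 2 lower, with a median log2 value of 0.10. CHGA was among those that fell (log2 -0.69), and it lost its call without a variance trend (adjusted p = 0.0508, limma). Among those that rose, NEUROD1, a neuronal transcription factor, had 31.1 and 28.7 normalized counts in vehicle and 292 and 203 in decitabine. Markers of other cell types also moved, with 5 of 7 listed higher and 1 lower, beside 15.4% and 12.3% of all genes and a median log2 value of 1.02 for the list. Their summed normalized counts were 1161 to 1172 in vehicle and 2159 to 2191 in decitabine. CD3E, CD68, SFTPC and SCGB1A1 were not listed in H146. In bulk RNA, fewer cells of a kind and less RNA per cell cannot be told apart, and the part of these markers in the values of the host genes was not tested.

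In H146, a few of the snoRNAs hosted by members have rows of their own, which hold few reads and may share them with the host. No microRNA that lies within a member has such a row. The counts below take all small RNA rows of a line, whether or not a member hosts them. In H146, 32 snoRNA or scaRNA rows gave 0 higher and 4 lower, and 26 microRNA rows gave 1 higher and 3 lower. The shares lower were near the 12.3% of all genes, and those higher were below 15.4%. SNORD104, which lies in SNHG25 and was chosen after its value was seen, had 75.2 and 203 normalized counts in vehicle and 59 and 66.7 in decitabine (log2 -0.97, SE 0.32, adjusted p = 0.024, limma). In F1339, 37 snoRNA or scaRNA and 18 microRNA rows gave 0 calls by limma. In the authors' deposited table, whose fold changes carry their own adjusted p, 5 H146 members were higher and 13 lower, and in F1339 Neat1 was higher and 0 were lower. Over all listed genes, that table called 4854 of 20863 in H146 and 107 of 16833 in F1339, both directions together.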

How the data were processed

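RNA was sequenced from 2 vehicle and 2 decitabine libraries of each line. The deposited signal values are reads per gene, scaled by the authors with 1 size factor for each library, and are not logged. Per the submitters' processing notes, tools included STAR 2.5.2b, Trimmomatic 0.36, DESeq2 and, from Subread 1.5.2, featureCounts, with GRCh38 as the build for both species. Annotation: not given in the sources used here, and likewise strandedness. The authors' deposited tables also give log2 fold changes, p-values and adjusted p-values; their H146 sign was turned to run from vehicle to decitabine.

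Whole reads were recovered for 100% of values within 0.001 read. Each line was fitted alone with limma 3.58.1 on log2(value + 1), eBayes with a variance trend, keeping genes that reach 10 in 2 or more of 4 libraries, adjusted by Benjamini and Hochberg at a threshold of 0.05; a fold change on this scale understates the change of low genes. Alternatives used edgeR 4.0.16, DESeq2 1.42.0, other scalings, filters and pseudocounts, a replicate block and each library left out, and the procedure was checked on simulated data. Ratios are of mean normalized counts, and counting intervals (95%) cover counting error only. The intervals are given where reads are few. H146 gene positions and the snoRNA and scaRNA sequences are from GENCODE release 29. Promoter windows and microRNA sequences are from RefSeq, GRCh38.p14. Promoters were searched on both strands for CACGTG.

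The text names GAS5, DLEU2, MALAT1 and NEAT1, members called in either line with their counterparts, the 10 most abundant members of each line, up to 3 called genes from each list (without any, its 2 most abundant) and neighbours on the other strand; remaining members and rows were added for completeness. Some genes of the lists are not reported here. Members, lists and rules were chosen with earlier results of these data known.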

Additional observations from a re-analysis of the deposited data

Results flagged for a closer look

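In 6 of the 21 members listed in both lines, every decitabine library lay below vehicle in H146 and above vehicle in F1339. This held for 4.1% of all genes tested in both lines. The log2 fold changes were -0.15 and 0.66 for DLEU2, -1.11 and 0.43 for SNHG12, -0.93 and 0.49 for SNHG1, -0.67 and 0.47 for SNHG17, -0.56 and 0.94 for SNHG15 and -0.55 and 0.86 for SNHG7, H146 first. The difference between the lines was not tested.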

How the results depend on the processing

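Each of 14 alternatives changed 1 choice, and no called gene reversed its direction under any of them. Of the 25 H146 members called, 9 kept the call whichever library was left out, 6 kept it under every alternative, 18 were also called by DESeq2 and 25 by edgeR. Without a variance trend, 3 H146 members were higher and 6 lower, against 7 and 18. Leaving out 1 library gave 3 to 8 higher and 9 to 19 lower in H146, and 0 in either direction in F1339. A lone library in an arm is taken to have the spread of the other arm. DESeq2 called 1 F1339 member higher.

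Replicate numbers are shared between arms, but the labels do not say that they pair cultures. Differences between replicates 1 and 2 correlated across genes between arms at 0.685 in F1339 and -0.034 in H146. With the replicate number as a block, 8 F1339 members were higher (Dleu2, Mir670hg, Malat1, Neat1, Snhg1, Snhg12, Snhg15 and Snhg17) and 0 lower, and over all F1339 genes 777 were higher and 548 lower. In H146 the block gave 7 higher and 15 lower, with MIR600HG, SNHG26 and SNHG16 at adjusted p of 0.064, 0.0563 and 0.0603 (limma). Over all 20783 H146 genes tested, it gave 2936 higher and 2256 lower.

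Same-total scaling removed the calls of SNHG26, SNHG7, SNHG16, MIR600HG and MALAT1. Without a trend H146 calls over all genes were 1581 higher and 583 lower, against 3198 and 2554. Uncalled values were judged by movement against their SE, and some changed sign; Mir22hg was -0.28 without F1339 decitabine replicate 2. Members with few reads are limited by counting error.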

Other observations

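Mouse Snora17, chosen after its values were seen, had 67 and 53.7 normalized counts in F1339 vehicle and 1030.2 and 608 in decitabine (log2 3.70, SE 0.37, adjusted p = 0.89 by limma and 4.60e-16 by DESeq2). In the human genome SNORA17A and SNORA17B lie in SNHG7, whose mouse row had at most 16.7 normalized counts in any library.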
